A study of Mus musculus with 6 samples.

Results

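The 10 genes described here, Pecam1, Cdh5, Kdr, Tek, Tie1, Emcn, Eng, Vwf, Esam and Cldn5, are markers of the endothelium that lines blood vessels. They were taken by symbol from a fixed list, and all 10 were found among the 23412 genes of the deposited table. RNA came from the ventral dermis of 6 mice aged 3 weeks, on a mixed CD1 and C57BL/6 background. The 3 mutants had the genotype HoxB6CreERT/+; R26-YFP/+; CatnbΔex3/+, an allele of the beta-catenin gene that yields a stabilised protein after Cre recombination. The 3 littermate controls carried the same Cre and YFP reporter alleles without the beta-catenin allele. Every mouse was exposed to tamoxifen, which switches the Cre on, through the mother at embryonic day 16.5. The Cre was driven from the Hoxb6 locus and the study's title places the active beta-catenin in dermal fibroblasts. Whether any endothelial cell carried the recombined allele was not analysed here. Dermis freed of epidermis with trypsin is a mixture that includes vessels, so these values are levels in whole tissue. In such bulk RNA, fewer endothelial cells and less RNA per cell cannot be told apart.

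Vascular endothelial growth factors signal to endothelial cells through tyrosine kinase receptors, of which Kdr (VEGFR2) is the main one in blood vessels. Angiopoietins act on Tek (Tie2), and Tie1 is its orphan partner receptor. Endothelial cells are joined by the adherens junction cadherin Cdh5 (VE-cadherin), the tight junction protein Cldn5 and the immunoglobulin family adhesion molecules Pecam1 and Esam, and in skin they form the capillary loops, venules and arterioles of the dermis.

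Values are FPKM (fragments assigned to a gene, scaled by its length and by the depth of the library), as the authors deposited them. Reads assigned to genes, recovered from the steps of the FPKM values, ran from 7799565 to 13478910 per library. Relative to the depth that divides FPKM, gene reads in control 2 were 0.865 times and in mutant 1 were 1.21 times those in control 1, and the other 3 libraries lay between 0.976 and 1.05. Control 2 and mutant 1 are therefore named below for some of the values they set, but not for all. Where only a range or a log2 difference is given, mainly in the further gene lists, either library may set the value without being named. Such differences are not to be read as free of control 2 and mutant 1. Xist, which coats the silenced X chromosome of females, stood at 55.5 and 66.2 FPKM in controls 1 and 2. It was at 6.47 in mutant 2, a level in between, and at 0.083 to 0.184 elsewhere, so sex was not balanced between genotypes. Library sex was coded by Xist above 20 FPKM, which only controls 1 and 2 reached. With library sex as a covariate, the genotype difference therefore rests on control 3 alone against the 3 mutants. Ctnnb1, the engineered gene, stood between 163 and 201 FPKM among controls and between 136 and 193 in mutants. A value for the whole gene does not show the loss of an exon and checks neither genotype nor labels.

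None of the 10 genes was called with limma on the deposited values, while limma-voom on recovered reads called 1, Kdr. Among the 10 genes 0 passed an adjusted p of 0.05 in limma on log2(FPKM + 1), while over all 12560 genes tested 18 (0.143%) passed, all of them higher in mutants. At an unadjusted p under 0.05, 2 of the 10 were higher, Kdr and Cldn5, and 0 were lower. Over all tested genes 10.5% were higher and 0.748% lower at that p. In 3 of the 10, Kdr, Emcn and Eng, every mutant lay above every control, and in 0 did every mutant lie below. Over all tested genes 13.0% had every mutant above and 2.65% every mutant below. With control 3 left out 4 of the 10 were separate upward (19.4% of all tested genes), with mutant 2 left out 3 (35.9%) and with mutant 3 left out 6 (16.3%). Of the 10 log2 differences (mutant minus control) 9 were above 0, as were 71.3% of all tested genes, and the median was 0.22 against 0.088 over all tested genes. All 10 had a mean of at least 1 FPKM and entered the test.

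The deposited values carry a shift between libraries that touches these figures. Median-of-ratios scaling and quantile normalization bring libraries to a common level by design, so the move of the all-gene median under them was built in. The cause of the shift was not tested. The median of all tested genes moved from 0.088 to -0.0084 after median-of-ratios scaling, to -0.029 after quantile normalization and to -0.040 with limma-voom on recovered reads. Of the genes at an unadjusted p under 0.05, 93.4% were higher in mutants as deposited and 63.1%, 54.6% and 56.4% under these settings. The median of the 10 genes was then 0.13, 0.092 and 0.14. It was 0.13 without control 2, 0.10 without mutant 1 and 0.016 without both, when the median of all tested genes was -0.042.

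Promoter windows, from 250 bases before to 50 after the start of the gene in RefSeq (GRCm38.p6), were given for 6 of the 10 genes. These were Kdr, Tek, Tie1, Emcn, Eng and Cldn5. The Tie1 window lies mostly inside the gene as GENCODE places it (118471191 to 118490061), so the 2 annotations differ in its start. Those of Kdr and Cldn5, the genes with the 2 largest differences, are shown. That of Tie1, a receptor whose difference of 0.22 was near the median of the 10 genes, is shown beside them. Capitals mark GGAAG or its reverse complement CTTCC, a single form of the core bound by ETS factors such as Erg and Fli1, which maintain endothelial gene expression. Other forms of that core were not marked or counted.
Kdr, chr5:75978406-75978705, minus strand: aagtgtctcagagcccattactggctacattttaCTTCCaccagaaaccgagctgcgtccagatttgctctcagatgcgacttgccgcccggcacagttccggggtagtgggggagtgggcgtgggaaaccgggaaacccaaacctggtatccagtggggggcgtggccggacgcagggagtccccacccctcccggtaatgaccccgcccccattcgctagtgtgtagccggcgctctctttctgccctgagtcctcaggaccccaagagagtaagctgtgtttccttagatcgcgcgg
Tie1, chr4:118489800-118490099, minus strand: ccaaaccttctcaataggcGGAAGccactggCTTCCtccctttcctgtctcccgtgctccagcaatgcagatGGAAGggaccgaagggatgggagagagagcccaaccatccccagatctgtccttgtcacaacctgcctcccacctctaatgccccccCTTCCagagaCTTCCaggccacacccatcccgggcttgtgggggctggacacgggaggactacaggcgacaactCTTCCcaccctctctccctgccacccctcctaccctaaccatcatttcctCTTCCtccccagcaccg
Cldn5, chr16:18776597-18776896, plus strand: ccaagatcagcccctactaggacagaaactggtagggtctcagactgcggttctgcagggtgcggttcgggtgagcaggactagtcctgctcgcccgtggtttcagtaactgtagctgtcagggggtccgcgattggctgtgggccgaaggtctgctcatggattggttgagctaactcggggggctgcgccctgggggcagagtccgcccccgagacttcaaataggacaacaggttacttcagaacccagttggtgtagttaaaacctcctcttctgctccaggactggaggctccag
The marked form was found 1 time in the Kdr window, 7 times in that of Tie1 and 0 times in that of Cldn5. In the windows not shown it was found 0 times for Tek, 2 times for Emcn and 2 times for Eng. Of the 6 windows 4 hold it at least once, as do 71.1% of the 27025 promoters of this length, 1 per symbol. The TCF/LEF motif CTTTGAT, a single form of the sites through which beta-catenin acts, was searched on both strands, as were the other motifs. Matches to different motifs may overlap, and other forms of these sites were not searched. In exactly these letters CTTTGAT was in 0 of the 6 windows and in 3.72% of all promoters. The GATA motif AGATAA was in 1 of the 6, that of Tek, and in 11.4% of all promoters. The Kdr, Tie1 and Cldn5 windows had 60.7%, 60.3% and 58.3% G and C, against a median of 52.7% over all promoters.

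**Figure D1:**
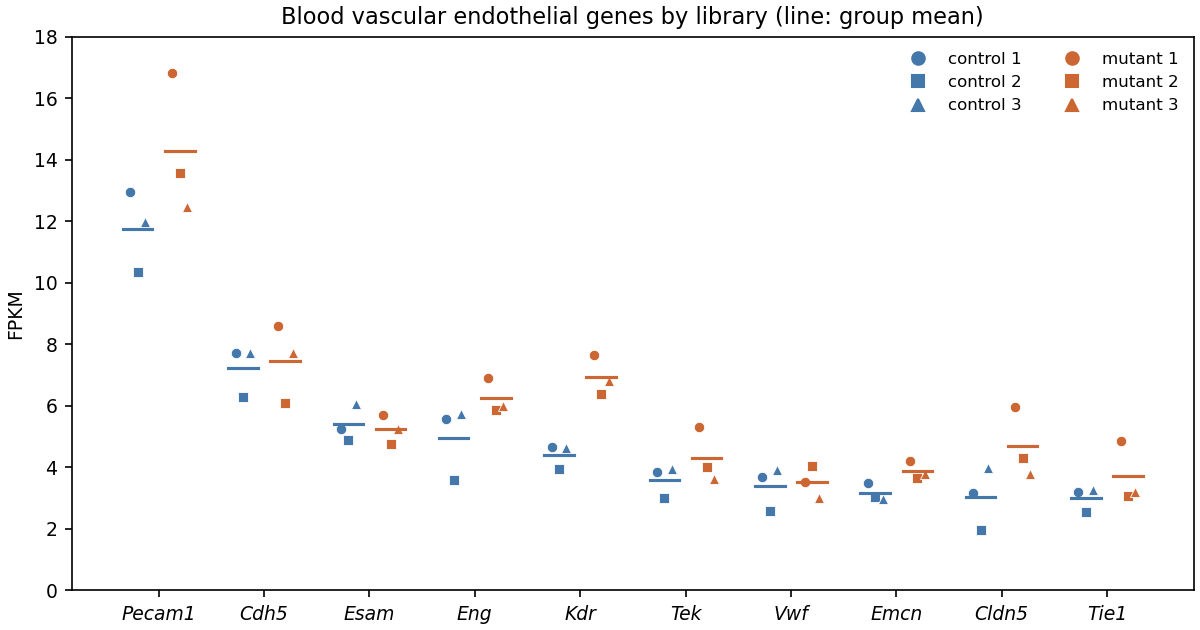
FPKM (vertical axis, linear, from 0) of the 10 genes in each of the 6 libraries, controls in blue and mutants in orange, with a line at each group's mean. Pecam1 is the most abundant, and Kdr shows the widest gap between groups, from 4.66 in the highest control to 6.39 in the lowest mutant.

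Kdr, on chromosome 5 (75932827 to 75978458, GRCm38, minus strand, protein coding), had the smallest p of the 10. It was at 4.66, 3.96 and 4.62 FPKM across controls 1 to 3 and at 7.64, 6.39 and 6.81 across mutants 1 to 3. The groups did not overlap, and the range within each was narrower than the gap between them. The means were 4.41 ± 0.39 and 6.95 ± 0.63 FPKM (SD, n = 3 each), a ratio of 1.58. The log2 difference was 0.56 (SE 0.12, 95% interval 0.28 to 0.83), which did not pass over all genes (limma adjusted p = 0.114). These values rest on 342 to 432 reads in each control and 744 to 815 in each mutant. With limma-voom on recovered reads Kdr was called (log2 difference 0.51, adjusted p = 0.0332), in a fit that called 181 genes (1.44%) higher and 4 lower. Over the alternatives its log2 difference ran from 0.43 to 0.64 and its adjusted p from 0.0332 to 0.90, the latter with library sex as a covariate (log2 difference 0.50). The mutants lay above the controls under each of the 3 scalings and without control 2 and mutant 1.

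Tek, on chromosome 4 (94739289 to 94874976, plus strand), was at 3.85, 3.01 and 3.92 FPKM across controls 1 to 3 and 5.29, 4.0 and 3.62 across mutants 1 to 3. The groups overlapped, since mutant 3 lay below controls 1 and 3, and mutant 1 stood highest. Its log2 difference of 0.20 (95% interval -0.14 to 0.54, adjusted p = 0.724) was -0.025 without control 2 and mutant 1. Tie1, on the same chromosome (118471191 to 118490061, minus strand), was at 3.18, 2.54 and 3.26 FPKM among controls and 4.86, 3.07 and 3.20 in mutants. Mutant 1 was the library that stood apart, with the other mutants inside the range of the controls. Mutants exceeded controls by 0.22 on the log2 scale (95% interval -0.14 to 0.59, adjusted p = 0.712), and the difference was -0.030 without control 2 and mutant 1. The ratio of Tek to Tie1 FPKM was 1.2 ± 0.0126 among controls and 1.17 ± 0.113 in mutants (SD, n = 3 each), with overlapping groups.

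Eng (endoglin), on chromosome 2 (32646595 to 32682669, plus strand), is a coreceptor for BMP9 and BMP10 on endothelial cells and is also made by other stromal and myeloid cells. It was at 5.57, 3.58 and 5.73 FPKM across controls 1 to 3 and 6.91, 5.85 and 5.99 across mutants 1 to 3. The groups were separate by a narrow margin between control 3 and mutant 2, and control 2 was the low library. The log2 difference of 0.30 (95% interval -0.069 to 0.67, adjusted p = 0.565) fell to 0.12 without control 2. The groups overlapped after median-of-ratios scaling and after quantile normalization. The annotation places Fpgs on the opposite strand over part of Eng, and whether the counting used strand is not given in the sources used here, so the reads of the pair may not be fully told apart.

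Pecam1 (CD31), on chromosome 11 (106654217 to 106750628, minus strand), was the most abundant of the 10, above 74.9% of all tested genes. It was at 12.9, 10.4 and 11.98 FPKM across controls 1 to 3 and 16.8, 13.6 and 12.5 across mutants 1 to 3. Mutant 3 fell below control 1, so the groups overlapped. Its log2 difference was 0.25 (95% interval -0.091 to 0.60, adjusted p = 0.618), from 543 to 1087 reads per library, and 0.058 without control 2 and mutant 1. Pecam1 is also a surface protein of leukocytes and platelets. The leukocyte and macrophage list summed to 96.6 to 164 FPKM among controls and 254 to 443 in mutants. Of its 14 genes 5 were called higher (0 without mutant 2), against 0.143% of all tested genes. Its part in the Pecam1 value was not tested.

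Cdh5, the cadherin restricted to endothelium, lies on chromosome 8 (104101625 to 104144511, plus strand). It was at 7.71, 6.28 and 7.70 FPKM across controls 1 to 3 and 8.60, 6.08 and 7.70 across mutants 1 to 3. The mutants spanned the whole range of the controls and went beyond it at both ends. The means of 7.23 ± 0.82 and 7.46 ± 1.28 FPKM (SD, n = 3 each) differed by 0.033 on the log2 scale (95% interval -0.30 to 0.37, adjusted p = 0.969). The sign turned under the 3 scalings, to between -0.070 and -0.11, so no direction is given for Cdh5. An antisense gene, Gm29682, overlaps it on the opposite strand.

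Esam, an adhesion molecule of endothelial tight junctions and platelets on chromosome 9 (37528078 to 37538319, plus strand), was at 5.23, 4.90 and 6.06 FPKM across controls 1 to 3 and 5.71, 4.75 and 5.25 across mutants 1 to 3. Control 3 was its highest library and mutant 2 its lowest. Its log2 difference was -0.036 (95% interval -0.32 to 0.25, adjusted p = 0.964), and between -0.13 and -0.19 under the 3 scalings. Every mutant lay below every control for Esam after quantile normalization and with limma-voom. The share of all tested genes separate downward was not counted under those settings. Genes lower at an unadjusted p under 0.05 numbered 94 as deposited, 993 after quantile normalization and 889 with limma-voom. Cldn5, on chromosome 16 (18776847 to 18778262, plus strand), was at 3.15, 1.96 and 3.97 FPKM among controls and 5.95, 4.30 and 3.78 in mutants. Mutant 3 lay below control 3, the only pair of libraries that kept the groups from being separate. The means of 3.03 ± 1.01 and 4.68 ± 1.13 FPKM (SD, n = 3 each) gave a ratio of 1.55, close to that of Kdr, with the controls spread from 1.96 to 3.97. On the log2 scale the difference was 0.51 (SE 0.21, 95% interval 0.046 to 0.97, adjusted p = 0.384), and 0.15 without control 2 and mutant 1. Cldn5 is short and its values rest on 44 to 165 reads per library, for which counting alone gives a relative error of 15.1% in the lowest library.

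Emcn (endomucin), a sialomucin of capillary and venous endothelium, lies on chromosome 3 (137341067 to 137432185, plus strand). It was at 3.50, 3.02 and 2.98 FPKM across controls 1 to 3 and 4.2, 3.66 and 3.76 across mutants 1 to 3. The groups did not overlap, with control 1 just under mutant 2. The log2 difference was 0.23 (95% interval -0.035 to 0.49, adjusted p = 0.529), from 65 to 120 reads per library, and the groups overlapped after quantile normalization and with limma-voom. Vwf (von Willebrand factor), the clotting protein that endothelial cells store and secrete, lies on chromosome 6 (125546774 to 125686679, plus strand). It was at 3.67, 2.57 and 3.89 FPKM among controls and 3.52, 4.03 and 3.0 in mutants. Mutants 1 and 3 lay inside the range of the controls. Its log2 difference was 0.052 (95% interval -0.29 to 0.40, adjusted p = 0.957), and it was below 0 under the 3 scalings (-0.033 to -0.080). Vwf is also stored in platelets. The 10 platelet and megakaryocyte markers summed to 8.76 to 18.1 FPKM in the controls and 20.8 to 33.9 in the mutants. Of the 3 that were tested 2, Pf4 and Itgb3, had every mutant above every control (13.0% of all tested genes). Pf4, a chemokine of platelet granules and some macrophages, was at 4.93 to 13.2 FPKM in the controls and 15.6 to 27.0 in the mutants, while Gp9, Gp6 and Treml1 were at or near 0 in every library (at most 0.0825 FPKM). The part of platelet RNA in the Vwf value was not tested.

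**Figure D2:**
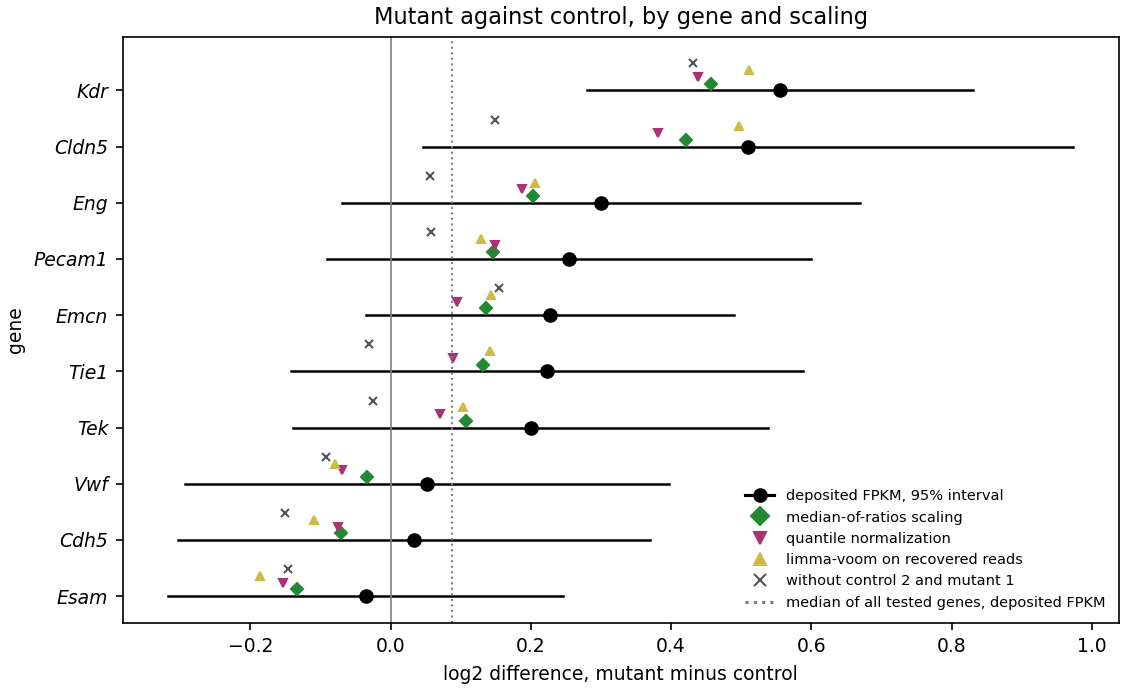
Log2 difference, mutant minus control (horizontal axis), of each of the 10 genes: black points and lines are the deposited values with their 95% intervals, and coloured marks are 4 alternatives. Kdr lies between 0.43 and 0.56 in all 5, while Cdh5 and Vwf, and without control 2 and mutant 1 also Tek and Tie1, cross 0.

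Library by library, 8 of the 10 genes were highest in mutant 1 and 7 were lowest in control 2. Esam was highest in control 3 and Vwf in mutant 2. Taken relative to the mean of the controls, the 10 genes had a median of 0.085, -0.17 and 0.10 across controls 1 to 3 and 0.44, 0.18 and 0.083 across mutants 1 to 3, on the log2(FPKM + 1) scale. The same median over all tested genes was 0.069, -0.11 and 0.042 among controls and 0.25, -0.064 and 0.096 in mutants. Both medians were thus highest in mutant 1 and lowest in control 2. As a share of gene reads the 10 genes took 0.0353%, 0.0318% and 0.0339% across controls 1 to 3 and 0.0371%, 0.0381% and 0.0350% across mutants 1 to 3. These shares overlap, since mutant 3 lies just under control 1.

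**Figure D3:**
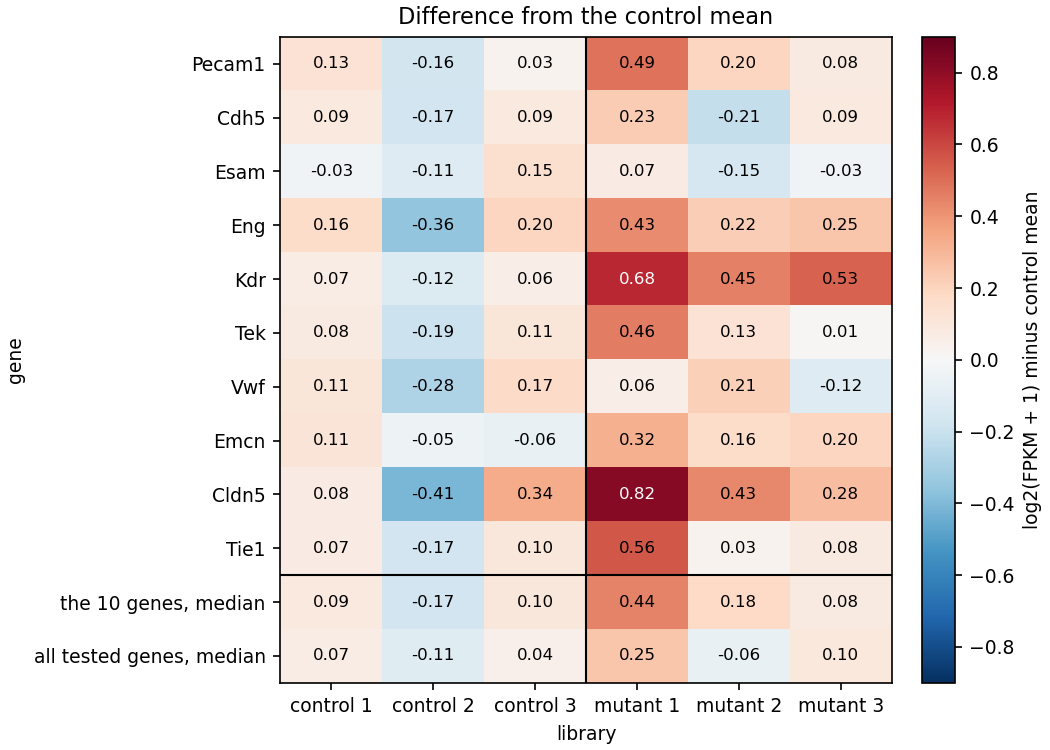
Each cell gives a gene's log2(FPKM + 1) in a library minus the mean of the 3 controls, with the median of the 10 genes and of all tested genes in the bottom rows. The columns of control 2 and mutant 1 are shifted in nearly every row, to medians of -0.17 and 0.44, while the row of Kdr is raised in all 3 mutants, by 0.45 to 0.68.

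To compare the 10 genes with each other within a library, where a factor common to all genes of that library cancels, each gene was set against the mean of the other 9 on the log2 FPKM scale. Kdr stood at -0.054, 0.094 and -0.11 across controls 1 to 3 and at 0.31, 0.37 and 0.49 across mutants 1 to 3, a difference of 0.41 with separate groups. Esam went the other way, from 0.13, 0.44 and 0.33 in controls to -0.16, -0.11 and 0.071 in mutants, a difference of -0.36. Cdh5 was at 0.75, 0.83 and 0.71 among controls and 0.50, 0.29 and 0.69 in mutants, a difference of -0.28, also with separate groups. The other 7 overlapped, Cldn5 with a difference of 0.42 among them. For these 3 genes the exact permutation test (two-sided) gave p = 0.10, the smallest that 3 against 3 libraries allow, and 0.333 adjusted over the 10 genes, so this design cannot pass 0.05. In these relative values a rise of some genes and a fall of others cannot be told apart.

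The ratio of Kdr to Cdh5 FPKM restates these values for a single pair. It was 0.604, 0.630 and 0.599 across controls 1 to 3 and 0.888, 1.05 and 0.885 across mutants 1 to 3. The pair was picked after the relative values were seen, so it adds no support to them. The controls lie close together, and every mutant is above them. Set against Flt1 (VEGFR1), a decoy-like receptor that shares the ligand Vegfa with it, Kdr was at 2.40, 1.97 and 2.30 among controls and 3.37, 2.41 and 3.27 in mutants. Mutant 2 was then almost level with control 1. Pecam1 set against Ptprc, the common leukocyte antigen, was at 4.09, 4.52 and 5.02 among controls and 2.17, 2.47 and 2.02 in mutants, since Ptprc was called higher in mutants (log2 difference 1.04, adjusted p = 0.0442) and Pecam1 was not.

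**Figure D4:**
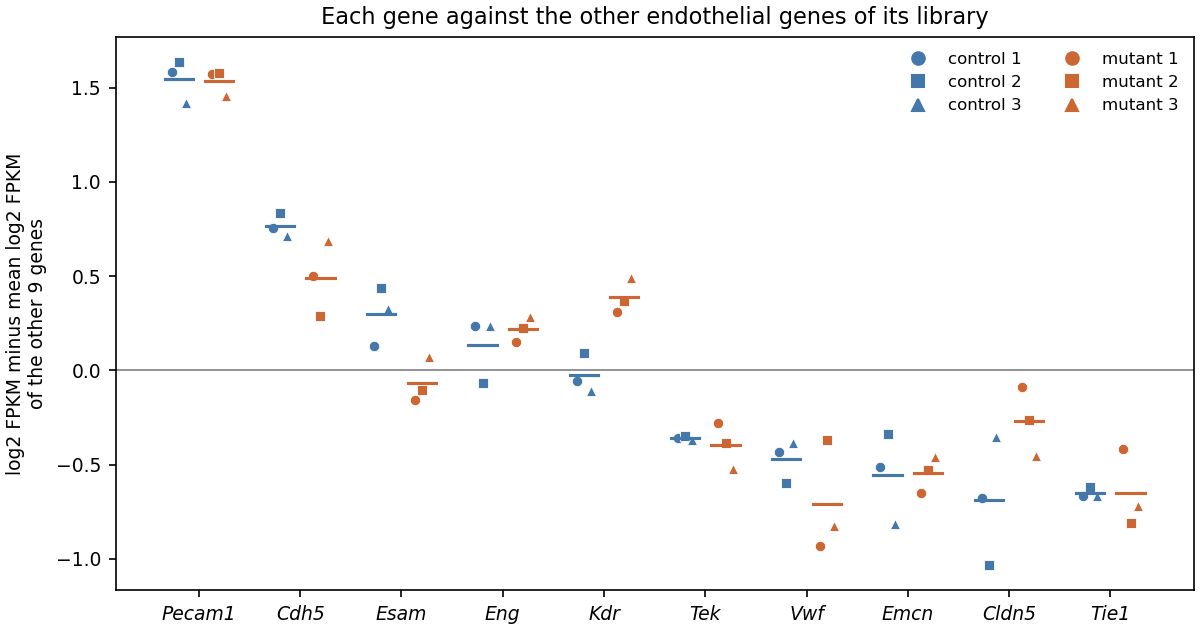
Log2 FPKM of each gene minus the mean log2 FPKM of the other 9 genes in the same library (vertical axis), controls in blue and mutants in orange, with a line at each group's mean. Kdr moves from a mean of -0.024 to 0.39, and Cdh5 and Esam are lower in every mutant than in any control.

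By level, averaged over the 6 libraries, the order was Pecam1 (13.02 FPKM), Cdh5 (7.35), Kdr (5.68), Eng (5.61), Esam (5.32), Tek (3.95), Cldn5 (3.85), Emcn (3.52), Vwf (3.45) and Tie1 (3.35). Pecam1 was above Cdh5 in 6 of 6 libraries and Esam above Tek in 6 of 6. The remaining neighbours changed places between libraries: Kdr exceeded Eng in 4 of 6 and Emcn exceeded Vwf in 3 of 6. FPKM depends on the gene length used, which is not given in the sources used here. Relative to the exon length in GENCODE release M21, the length implied by reads and FPKM was lowest for Emcn, at 0.376 times the median of the 10 genes, and between 0.739 and 1.39 times for the other 9, so the place of Emcn in this order is the least certain.

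Among 14 genes of the VEGF and angiopoietin system, 12 were tested. Limma called 0 of them (5 were higher at an unadjusted p under 0.05), limma-voom called 1, Vegfc, and in 6 every mutant lay above every control (13.0% of all tested genes). Their median log2 difference was 0.30, against 0.22 for the 10 endothelial genes, and 0.19 without control 2 or without mutant 1. For this and the following lists, the shares over all tested genes were 13.0% separate upward and 10.5% higher at an unadjusted p under 0.05. Of all tested genes limma called 0.143% higher and limma-voom 1.44%. The named genes of this and the following lists are the 4 with the smallest p in each. Vegfc, a ligand of Flt4 on lymphatic endothelium and, once processed, of Kdr, was at 1.59, 1.04 and 1.64 FPKM across controls 1 to 3 and 4.13, 3.19 and 2.92 across mutants 1 to 3. Its groups were well separated, with a log2 difference of 0.87 (adjusted p = 0.0760), and limma-voom called it (1.11, adjusted p = 0.0262). The related ligand gene Figf (Vegfd) was at 1.53, 1.01 and 2.35 among controls and 4.71, 2.62 and 3.26 in mutants (adjusted p = 0.185). Flt4 (VEGFR3), their receptor, had a log2 difference of 0.53 (adjusted p = 0.20). Angptl1, an angiopoietin-like secreted protein, was at 5.50 to 6.14 FPKM among controls and 7.31 to 13.7 in mutants (adjusted p = 0.227). Vegfa, the main ligand of Kdr, was at 4.74, 3.78 and 5.59 FPKM among controls and 4.55, 5.65 and 4.97 in mutants, with overlapping groups (log2 difference 0.095, adjusted p = 0.895). Angpt1 and Angpt2, the agonist and the context-dependent ligand of Tek, had log2 differences of 0.29 and -0.070 (adjusted p = 0.598 and 0.905). Vegfa, Angpt1 and Angpt2 were named for their role as ligands, after their values were seen.

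Of 40 further blood endothelial genes 33 were tested, with a median of 0.21 (0.13 without mutant 1) and 10 separate upward (13.0% of all tested genes). Limma called 0 (9 were higher at an unadjusted p under 0.05) and limma-voom called 1, Cd34. Cd34, a sialomucin of capillary endothelium and of some fibroblasts and stem cells, was at 49.0, 33.6 and 47.2 FPKM across controls 1 to 3 and 105, 82.3 and 66.4 across mutants 1 to 3 (log2 difference 0.94, adjusted p = 0.138). All 3 mutants exceeded the controls, and limma-voom called it (0.82, adjusted p = 0.0262). Fli1, an ETS factor of endothelial and blood cells, was at 2.06 to 2.49 FPKM among controls and 3.22 to 4.68 in mutants (adjusted p = 0.17). The surface protein genes Ly6c1 and Ly6a, found on endothelium and on leukocytes or stromal cells, had log2 differences of 0.75 and 0.85 (adjusted p = 0.237 and 0.239). The ETS factor gene Erg, more restricted to endothelium and named after its values were seen, was at 2.18, 2.05 and 1.66 FPKM among controls and 2.22, 1.93 and 2.02 in mutants, with overlapping groups (log2 difference 0.046, adjusted p = 0.948).

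The list of arterial, venous and activated endothelium had 12 of 18 genes tested and 3 separate upward (13.0% of all tested genes). Its median was 0.19 (0.12 without control 2, 0.096 without mutant 2, 0.066 after quantile normalization). That median turned to -0.042 with library sex as a covariate, and to -0.15 over the 6 genes left by the filter at a mean of 5 FPKM. Limma and limma-voom each called 0, and 1 was higher at an unadjusted p under 0.05. Its smallest p belonged to Icam1, a leukocyte adhesion receptor, at 3.82 to 5.32 FPKM among controls and 5.89 to 6.98 in mutants (log2 difference 0.40, adjusted p = 0.288). Ephb4, a receptor of venous endothelium, had a log2 difference of 0.29 (adjusted p = 0.475), Hey1, a Notch target of arteries, 0.33 (adjusted p = 0.512) and Nr2f2, a transcription factor of veins, 0.21 (adjusted p = 0.561). Among 23 junction genes and partners of Eng, 21 were tested. Limma called 0 (2 were higher at an unadjusted p under 0.05) and limma-voom called 1, Tgfbr2. Their median was -0.038 (0.080 without mutant 2), and 4 were separate upward. Tgfbr2, a receptor for TGF-beta in many cell types, was at 13.3 to 19.6 FPKM among controls and 24.8 to 35.1 in mutants (log2 difference 0.73, adjusted p = 0.175, and 0.62, adjusted p = 0.0428, with limma-voom). Jam2, a junctional adhesion molecule, had a log2 difference of 0.36 (adjusted p = 0.343), Acvrl1 (ALK1), the signalling receptor that works with Eng, 0.42 (adjusted p = 0.443) and the phosphatase gene Ptprm 0.26 (adjusted p = 0.480). Many genes of this list, such as Ctnnb1, Jup and Cldn1, are also abundant in epithelium.

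Cells that lie beside or resemble blood endothelium gave the following values. Of 8 lymphatic endothelial markers 5 were tested and 4 were separate upward (13.0% of all tested genes). Their median was 0.53 (0.41 without control 2, 0.36 without control 2 and mutant 1). Limma called 0 (4 were higher at an unadjusted p under 0.05) and limma-voom 1, Lyve1. Their summed level was 14.3 to 17.8 FPKM among controls and 24.7 to 32.6 in mutants, and Ccl21a was listed at 0 in every library. Lyve1, a hyaluronan receptor of lymphatics and of some macrophages, was at 3.88, 3.24 and 2.95 FPKM across controls 1 to 3 and 9.55, 9.35 and 5.52 across mutants 1 to 3. Each mutant lay well above the controls (log2 difference 1.04, adjusted p = 0.0803), and limma-voom called it (1.09, adjusted p = 0.0495). Mmrn1, a multimerin of lymphatic endothelium and platelets, had a log2 difference of 0.89 (adjusted p = 0.097) and Reln, a secreted glycoprotein, 0.35 (adjusted p = 0.338). Prox1, the factor that defines lymphatic endothelium, was under the floor of the test at 0.518 to 0.883 FPKM.

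Pericytes, which wrap capillaries, had 11 of 12 markers tested and 4 separate upward (13.0% of all tested genes). Their median of 0.24 was 0.044 without control 2, 0.12 without mutant 1 and -0.0095 without both. Limma called 0 (4 were higher at an unadjusted p under 0.05) and limma-voom 1, Kcnj8. Their summed level was 81.5 to 130 FPKM among controls and 117 to 162 in mutants. Kcnj8, a potassium channel subunit, was at 2.69, 1.47 and 3.36 FPKM across controls 1 to 3 and 11.5, 6.12 and 6.90 across mutants 1 to 3, the widest gap in this list (log2 difference 1.38, adjusted p = 0.0777). It was called with limma-voom (1.56, adjusted p = 0.0188). Its partner subunit Abcc9 had a log2 difference of 0.50 (adjusted p = 0.264), the mitochondrial protein gene Ndufa4l2 of 1.06 (adjusted p = 0.229) and the receptor gene Pdgfrb of 0.46 (adjusted p = 0.401). Rgs5, a defining pericyte gene named after its values were seen, was at 14.9 to 15.4 FPKM among controls and 12.8 to 19.5 in mutants (log2 difference 0.048, adjusted p = 0.963). Vascular and other smooth muscle had 8 of 8 markers tested and 0 separate, with a median of 0.33 (0.16 without control 2, 0.18 without mutant 1). Limma and limma-voom each called 0, as many as were past an unadjusted p of 0.05.

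Markers of the other cell types in dermis are given for scale. Leukocyte and macrophage markers had a median of 1.05 (0.78 without control 2 and mutant 1), with 13 of 14 separate upward (13.0% of all tested genes). All 14 were higher at an unadjusted p under 0.05 (10.5% of all tested genes). Limma called 5 of the 14 and limma-voom 11, against 0.143% and 1.44% of all tested genes called higher. Dermal fibroblast markers had a median of 0.97 (0.50 without control 2 and mutant 1), with 7 of 10 separate upward. Limma called 0 of them (6 were higher at an unadjusted p under 0.05) and limma-voom 5. Adipocyte markers had a median of 0.85 (0.41 without control 2 and mutant 1), with 4 of 8 separate upward. Limma called 0 (6 were higher at an unadjusted p under 0.05) and limma-voom 1. Keratinocyte and hair follicle markers stood at 0.17 (0.059 without control 2, 0.087 without mutant 1), with 0 of 10 called by either tool and 2 higher at an unadjusted p under 0.05. Skeletal muscle markers stood at 0.27, with 0 of 8 called by either tool or past an unadjusted p of 0.05. That median turned to -0.29 without control 2, -0.037 without mutant 1 and -0.43 with library sex as a covariate. Of the red blood cell markers 2 of the 7 in the table were tested and 0 were called by either tool or past an unadjusted p of 0.05, and 4 hemoglobin genes were listed at 0. The median of the 10 endothelial genes, 0.22, was thus nearer to that of all tested genes than to that of the fibroblast or leukocyte list. The difference between lists was not tested, and the part of the leukocyte, fibroblast and adipocyte markers in the endothelial values was not tested.

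**Figure D5:**
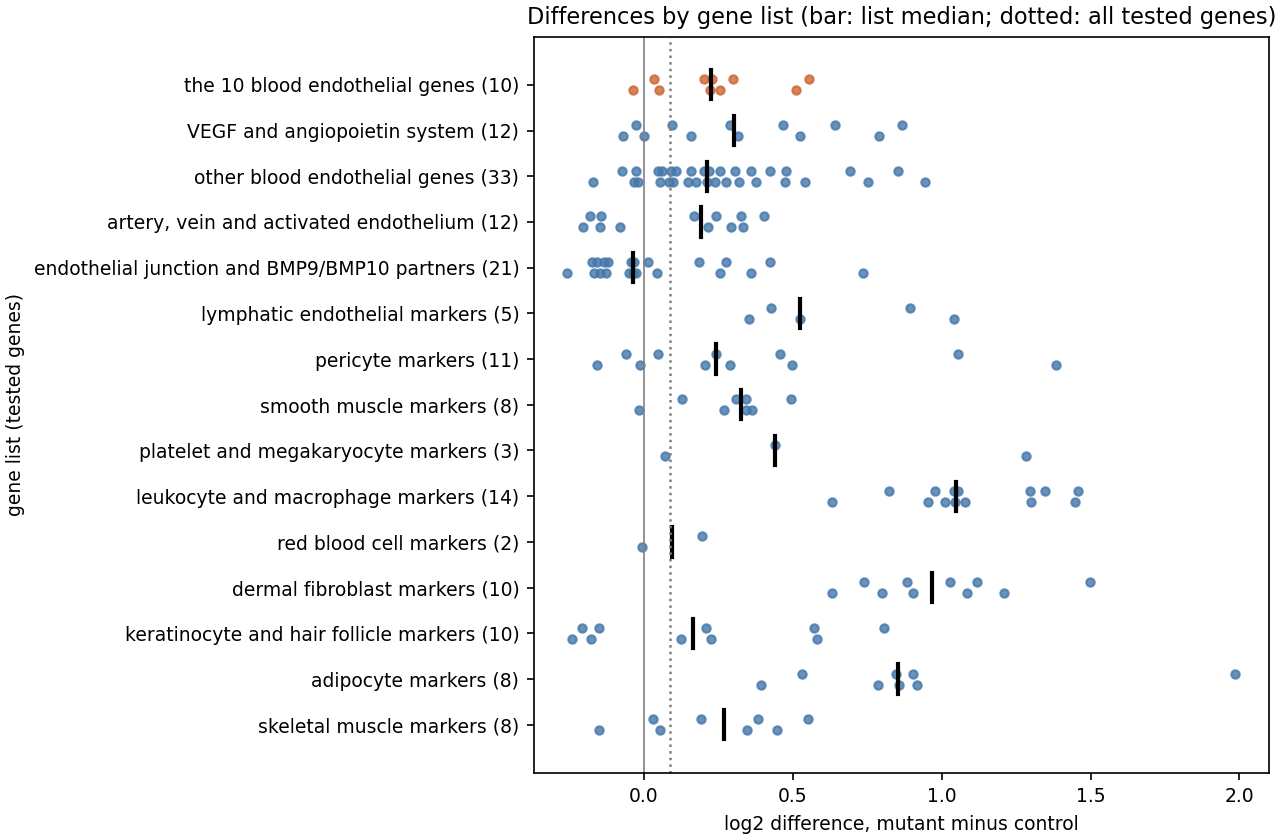
Each point is a tested gene, placed by its log2 difference, mutant minus control (horizontal axis), in rows by gene list with the number of tested genes in brackets. Black bars are list medians, 0.22 for the 10 blood endothelial genes (orange), 0.97 for fibroblast and 1.05 for leukocyte markers, and the dotted line is the median of all tested genes, 0.088.

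The genes most like the 10 in their pattern over the 6 libraries were sought by Pearson correlation with the mean of the 10 genes' standardised values. The 5 highest were Sepw1, Aplp1, Zfand3, Rftn1 and Prps1, with r from 0.997 to 0.999 over 6 libraries that share depth and scaling. Sepw1, for example, was at 37.8, 24.0 and 38.4 FPKM across controls 1 to 3 and 58.6, 37.7 and 38.9 across mutants 1 to 3. All 5 are low in control 2 and high in mutant 1, and none is on the endothelial lists. An r above 0.9 was reached by 2075 of 12550 genes (16.5%) and by 5 of the 33 other blood endothelial genes (15.2%), which were Cd93, Ly6a, Ly6c1, Plvap and S1pr1. Of the 10 genes, Cldn5 and Tek followed the mean of the other 9 most closely (r = 0.957 and 0.956 over 6 libraries), and Esam and Vwf least (0.451 and 0.492).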

How the data were processed

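RNA from the dermis of 3 control and 3 mutant mice was made into stranded paired-end libraries, per the labels' protocols. GSNAP, HTSeq and genome build mm10 are named, without versions, per the submitters' processing notes. The sources used here do not give the annotation, counting options or gene lengths. The authors deposited 1 table of FPKM values, with 1 column per library.

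Values were compared as log2(FPKM + 1), a scale that understates changes of low genes. The 12560 of 23412 genes whose mean reached 1 FPKM were tested with limma 3.58.1 (R 4.3.3), with an intensity trend, no covariate or block, two-sided, and with Benjamini-Hochberg adjustment over all tested genes and a threshold of 0.05. The prior had 5.44 degrees of freedom. With 3 against 3 libraries an exact permutation test cannot go below 0.10, so adjusted p-values rest on the pooled variance. The FPKM values of each gene fall on a grid whose step is worth 1 read, which gave whole reads for 23412 of 23412 genes (relative tolerance 3e-09). That includes 1820 genes at 0 throughout and 1448 seen in a single library, where nothing could be checked. A gene whose reads share a divisor would come out too low. These reads served for depth and for limma-voom only. The limma test and the read recovery were tested on simulated data, limma-voom was not. Between libraries of a group, chi-square per degree of freedom was 13.4 to 67.0, above counting noise. Since separate mice are named in the labels, the p-values reflect variation among mice and their libraries.

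Locations are from GENCODE release M21 (GRCm38, the build mm10) and promoters from RefSeq (GRCm38.p6). Alternatives were other pseudocounts, filters and scalings, a replicate block, library sex and leaving out libraries. The genes and lists were chosen with earlier results of these data known. The text names all 10 genes, up to 4 genes of smallest p from lists of vascular cells and 5 genes of most similar pattern, and says where it names others. No set test was run.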

Additional observations from a re-analysis of the deposited data

How the results depend on the processing

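None of the 10 genes was called under any setting except limma-voom on recovered reads, which called 1, Kdr (log2 difference 0.51). Leaving out single libraries gave 0 called genes each time, a median of the 10 genes of 0.10 to 0.29, and 3 to 6 genes with every mutant above every control (6 without mutant 3, where 16.3% of all tested genes were separate in this way). Quantile normalization left 1 such gene, Kdr, where 11.3% of all tested genes were separate in this way. The median was 0.016 without control 2 and mutant 1, a setting chosen after seeing the data.

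Signs turned for 5 of the 10 genes, Cdh5, Vwf, Esam, Tek and Tie1, with adjusted p from limma of at least 0.605 in each reversed value. With library sex as a covariate Cdh5 was at -0.053 and Vwf at -0.12. With limma-voom they were at -0.11 and -0.080, after median-of-ratios scaling at -0.070 and -0.033, and after quantile normalization at -0.075 and -0.069. Without control 2 and mutant 1 Cdh5 was at -0.15, Vwf at -0.092, Tek at -0.025 and Tie1 at -0.030. Leaving out single libraries, Cdh5 ran from -0.064 to 0.16, Vwf from -0.089 to 0.14 and Esam from -0.092 to 0.038. The cause was not tested.

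Same-numbered libraries did not deviate together (r = 0.002, 0.037 and -0.082), and 0 of 6 libraries correlated best with its own number. The replicate block called 0 of the 10 genes (Kdr adjusted p = 0.071, median 0.22) and 67 genes higher and 1 lower in all. Over all genes 18 were called higher in the fit as described. The numbers were 4 with no filter, 9 with a pseudocount of 0.1, 28 after median-of-ratios scaling, 32 after quantile normalization, 181 with limma-voom and 10 with the sex covariate. They ran from 3 to 189 when single libraries were left out, and 9 were called without control 2 and mutant 1. The filter at a mean of 5 FPKM left 5 of the 10 genes to test. The block and the covariate leave each library's values as they are, so overlap between groups was not recounted for them. Low genes rest on few reads, 44 in the lowest library for Cldn5 and 65 for Emcn, and intervals on reads cover counting error only.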
